A study of Mus musculus with 130 samples.

Results

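Hc encodes complement component C5 of the mouse. Its transcript level in liver was followed in every library of a study of dietary iron. Hc was found by its Ensembl identifier, ENSMUSG00000026874, and is 1 gene of 35711 in the tables of the strain panel and of 35274 in the tables of the diet study. Liver RNA of 130 male mice was sequenced. Most came from the Hybrid Mouse Diversity Panel, here 114 strains with 1 mouse each, except 129X1/SvJ, which has 2. Its mice were given chow for 4 weeks and then 2% carbonyl iron (20000 ppm) for 6 weeks. The diet study holds 15 C57BL/6J mice, 3 on each of chow, 50 ppm iron (labelled sufficient), 500 ppm iron (labelled elevated), 2% carbonyl iron, and 2% carbonyl iron with cellulose as the fiber source. No ages are given, every panel mouse was on 2% iron, and the panel and diet tables were normalized separately, so levels are compared only within each.

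C5 is a plasma protein made mainly by hepatocytes. Complement convertases cleave it into C5a, a small peptide that attracts and activates phagocytes through its receptor, and C5b, which gathers C6, C7, C8 and C9 into the membrane attack complex. Many common inbred strains, among them DBA/2J and A/J, are known to lack serum C5 because of a deletion of a dinucleotide in the Hc coding sequence, while C57BL/6J, C3H/HeJ and the BALB/c strains carry the intact gene. Recombinant inbred families fix a mixture of 2 parental genomes, and the panel holds 56 BXD strains (C57BL/6J and DBA/2J), 20 AXB/BXA strains (C57BL/6J and A/J), 4 BXH strains (C57BL/6J and C3H/HeJ), 3 CXB strains (C57BL/6J and a BALB/c parent) and 31 other inbred strains. The C5 status of strains is background knowledge and is not in the labels. Hc was chosen for its known strain pattern, so its levels across strains are given as a description with no test.

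Hc lies on the minus strand of chromosome 2, chr2:34983331-35061438 in GRCm38, and is annotated as protein coding. Its full-length transcript, Hc-201, has 5445 bases in 41 exons and a reading frame of 1680 codons. The exon that holds the known dinucleotide is exon 6, chr2:35043188-35043270 on the minus strand, with 83 bases. Its reference sequence from the GENCODE M21 transcripts is shown 5′ to 3′ because the deficiency known for the low parents lies in it, and the capitals mark bases 62 and 63 of the exon, which the deficient allele is known to lack.
Hc-201 exon 6: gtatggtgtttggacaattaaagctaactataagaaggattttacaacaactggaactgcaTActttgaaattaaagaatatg
Taking these bases out of the reference transcript shortened the open reading frame from 1680 to 216 codons. This is the reference strain's sequence, and the exon was not read in any strain here. Shorter transcripts of 579 to 694 bases are annotated as well: Hc-202 over exons 30 to 34 of Hc-201, Hc-203 over exons 28 to 33, Hc-204 over exons 34 and 35, and Hc-205 over exon 21 and exons 38 to 41. None of the 5415 words of 31 bases in Hc-201 occurred in a transcript of another gene. An antisense gene, Gm13449, overlaps Hc in the annotation and was not analysed here, and the strand setting of the counting is not given in the sources used here.

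Library totals were 9.41 to 20.6 M counts in the panel and 10.4 to 20.4 M in the diet study, where M stands for 1000000 counts. The summed level of 5 hepatocyte markers (Alb, Apoa1, Ttr, Tat, Hnf4a) was 48800 to 149459 CPM over the panel. In BXD65/RwwJ the counts of Y-linked genes summed to 3.86 CPM, against at least 124 CPM in each of the 114 other panel libraries, which goes against its label as male. As a check of the strain labels, the genes lying over 8-fold outside the range of a pair of parents were counted for each recombinant library, among 12913 genes. Of the 4 pairs of C57BL/6J with DBA/2J, A/J, C3H/HeJ or BALB/cByJ, the labelled pair gave the fewest such genes in 51 of 56 BXD, 15 of 20 AXB/BXA, 2 of 4 BXH and 1 of 3 CXB libraries. The library labelled AXB10/PgnJ had 39 genes outside C57BL/6J and A/J but 12 outside C57BL/6J and DBA/2J. The library labelled BXH10/TyJ had 16 outside C57BL/6J and C3H/HeJ but 7 outside C57BL/6J and A/J and 9 outside C57BL/6J and BALB/cByJ. The library labelled BXH14/TyJ had 46 outside its labelled pair and 32 outside C57BL/6J and DBA/2J. These libraries were singled out after their values were seen, and what they carry was not tested.

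Hc was an abundant liver transcript in every strain and differed 18.4-fold between the extremes. The lowest level was 78.2 CPM in NZB/BlNJ, the median 528 CPM and the highest 1435 CPM in BXD28/TyJ (CPM, counts per 1000000 counts of the library, scaled with TMM factors). Strains lay at a low or a high level with few between: sorted by level, the widest difference in CPM among neighbours was from BXD14/TyJ at 397.5 CPM to BUB/BnJ at 509.4 CPM, with 56 strains below it and 58 above. On TPM, a scale per transcript length, the widest difference was from 116 TPM in NON/ShiLtJ to 147 TPM in BXD48a/RwwJ, with 55 strains below and 59 above. As ratios these steps were 1.28 and 1.27, and on either scale the step from NZB/BlNJ to BTBR T<+> tf/J at the bottom was wider, at 1.37 on CPM and 2.08 on TPM. The 55 strains below on TPM were all below on CPM, and BXD14/TyJ was the strain that differed. These steps were chosen after the values were seen. The SD of log2 CPM over strains was 1.15 for Hc against a median of 0.33 over genes, and 5.51% of 12913 genes had a larger one. With 1 mouse per strain no spread within a strain is known beyond 129X1/SvJ, whose mice had 1051 and 1066 CPM. The order of neighbouring strains within the low or within the high range is therefore not resolved.

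**Figure D1:**
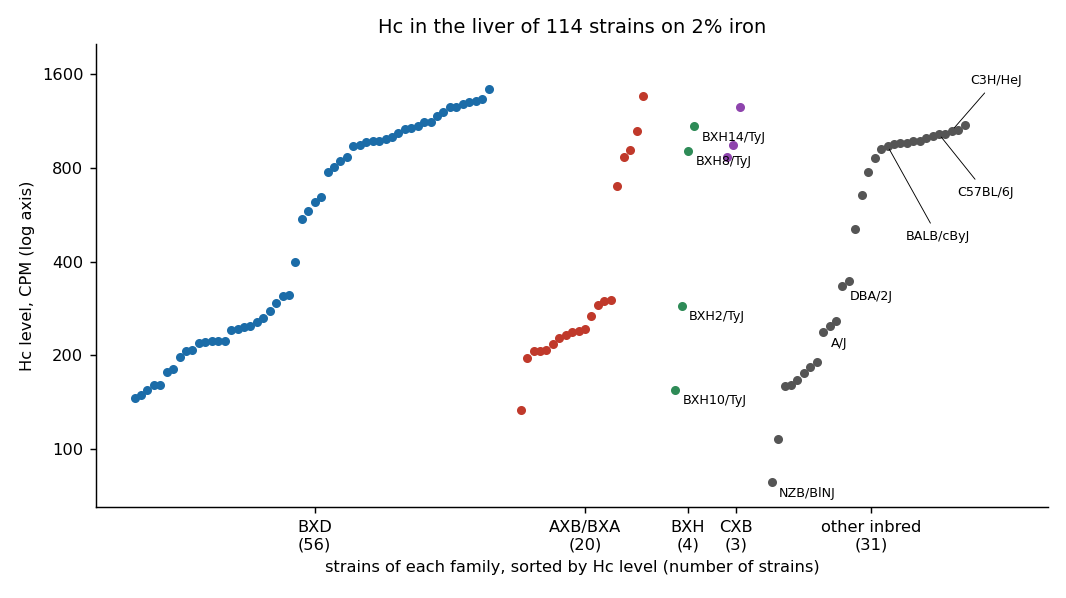
Hc level (CPM, log axis) in each of 114 strains, sorted within each family, with 1 point per strain (the mean of 2 mice for 129X1/SvJ). Strains cluster near 200 and near 1000 CPM, with 56 at or below 397.5 CPM and 58 at or above 509.4 CPM.

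The parents of the large families differed in Hc. C57BL/6J had 1026 CPM, or 234 TPM, and the C5-deficient parents had 335 CPM, or 114 TPM (DBA/2J), and 237 CPM, or 76.6 TPM (A/J). C57BL/6J was thus 3.06-fold above DBA/2J and 4.33-fold above A/J in CPM, and 2.06-fold and 3.06-fold above them in TPM. The other parents lay near C57BL/6J, at 1054 CPM (C3H/HeJ) and 940 CPM (BALB/cByJ). Low did not mean absent: DBA/2J gave 3538 counts, A/J 2732 and NZB/BlNJ, the lowest strain, 963.

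Of 13 inbred strains whose C5 status is widely known, chosen with their levels known, the 7 deficient ones lay below the 6 sufficient ones. Hc was itself chosen for this pattern, so the separation is a description and tests nothing. The deficient strains had 78.2 CPM (NZB/BlNJ), 160 (AKR/J), 175 (NOD/ShiLtJ), 184 (FVB/NJ), 191 (SWR/J), 237 (A/J) and 335 (DBA/2J). The sufficient strains had 940 CPM (BALB/cByJ), 964 (BALB/cJ), 1026 (C57BL/6J), 1030 (CBA/J), 1054 (C3H/HeJ) and 1059 (129X1/SvJ). The ratio of the medians, 1028 over 184 CPM, was 5.60, and on TPM it was 3.48, from 255 over 73.4 TPM. The deficient strains varied more among themselves, with 194 ± 78.3 CPM (SD, n = 7 strains) against 1012 ± 48.8 CPM (SD, n = 6 strains).

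Further inbred strains in the low range were BTBR T<+> tf/J (107 CPM), KK/HlJ (160 CPM), NOR/LtJ (167 CPM), I/LnJ (249 CPM), CE/J (257 CPM) and NON/ShiLtJ (346 CPM). NOR/LtJ lay beside its relative NOD/ShiLtJ. BUB/BnJ (509.4 CPM), C58/J (654 CPM) and C57BLKS/J (774 CPM) stood between the low strains and the bulk of the high ones. The remaining inbred strains ran from 861 CPM (NZW/LacJ) to 1097 CPM (PL/J).

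Among the 56 BXD strains, 26 lay below the step, at 146 to 398 CPM, and 30 above it, at 547 to 1435 CPM. The count was 13 of 29 among strains with the suffix RwwJ and 13 of 27 among those with Ty or TyJ. Divided instead at 586 CPM, the geometric mean of C57BL/6J and DBA/2J, 28 strains were below and 28 above. BXD48a/RwwJ (547 CPM) and BXD19/TyJ (583 CPM) were the strains that moved, and BXD87/RwwJ at 620 CPM was the lowest above the line. BXD48/RwwJ, the near namesake of BXD48a/RwwJ, had 1252 CPM. Beyond both parents lay many strains: the lowest BXD strain, BXD60/RwwJ, had 146 CPM against 335 CPM in DBA/2J, and the highest had 1435 CPM against 1026 CPM in C57BL/6J. Without BXD65/RwwJ (160 CPM) the count under 586 CPM was 27 of 55.

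The AXB/BXA strains leaned to the low level. Below the step were 9 of 10 AXB and 6 of 10 BXA strains, at 133 to 301 CPM. The 5 others were BXA4/PgnJ (702 CPM), BXA1/PgnJ (869 CPM), BXA8/PgnJ (915 CPM), BXA2/PgnJ (1049 CPM) and the library labelled AXB10/PgnJ (1365 CPM). Divided at 493.03 CPM, the geometric mean of C57BL/6J and A/J, the count was again 15 of 20, and 15 of 19 without the library labelled AXB10/PgnJ. The related strains AXB19/PgnJ, AXB19a/PgnJ and AXB19b/PgnJ were all low, at 268, 239 and 301 CPM.

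The small families behaved unlike each other. The CXB strains, whose parents were both high, were all high, at 868 CPM (CXB2/ByJ), 948 CPM (CXB7/ByJ) and 1256 CPM (CXB12/HiAJ). The parents of the BXH strains were high too, yet BXH2/TyJ had 288 CPM and the library labelled BXH10/TyJ 155 CPM, while BXH8/TyJ had 907 CPM and the library labelled BXH14/TyJ 1089 CPM. Both low BXH levels are below every sufficient strain named above. As given above, the library labelled BXH10/TyJ had fewer genes outside C57BL/6J with A/J (7) or with BALB/cByJ (9) than outside its labelled parents (16). Its parents cannot be told from these counts. BXH2/TyJ had 80 genes outside the range of its labelled parents, the most of the recombinant libraries, and no other pair gave fewer.

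Count and TPM of Hc did not differ between strains by the same factor, because TPM divides by a transcript length that depends on how the count is shared among transcripts. The effective length behind each Hc value was therefore recovered from count and TPM, with a line fitted in each library to 677 to 926 genes that have a single annotated transcript. At least 99.0% of those genes lay within 10% of the line. Counts given to the short transcripts of Hc lower this length, so it is a reading of the authors' quantification and not a measured transcript. This measure was chosen after the data were seen.

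The recovered length of Hc was shorter in low strains. It was 4200 bases in C57BL/6J, 3894 in C3H/HeJ and 4155 in BALB/cByJ, but 2669 in DBA/2J and 3074 in A/J. The 7 deficient strains had 2522 to 3343 bases and the 6 sufficient strains 3455 to 4427 bases in the panel. The diet mice, all C57BL/6J, ran from 3180 bases (500 ppm replicate 2) to 4503 (2% iron replicate 3). The lowest of these diet values lies within the range of the deficient strains, so mice of 1 strain vary widely in this measure. Over the BXD strains the recovered length ran from 2542 bases (BXD100/RwwJ) to 4668 (BXD55/RwwJ) with a median of 3289, and Spearman's rho with Hc CPM was 0.78. Over the AXB/BXA strains rho was 0.65 and over the other inbred strains 0.75. These correlations are descriptions, since both measures contain the Hc count. For 7254 other genes with several transcripts, each length was set relative to the median of that gene over libraries. The median over these genes lay between -0.0203 and 0.00473 on the log2 scale in every panel library. That centering itself keeps this median near its middle, so it does not show how much the length of single genes varied.

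Length and level did not always go together. BXH2/TyJ combined a low level of 288 CPM with 3835 bases, a length within the range of the sufficient strains, whereas the library labelled BXH10/TyJ had 2542 bases. BXD28/TyJ, the highest strain, had 3356 bases, and LP/J had 3013 bases at 979 CPM. BXD14/TyJ, at the upper edge of the low range, had 2677 bases, close to DBA/2J. BXD19/TyJ, the deepest panel library with 20.6 M counts, had 3191 bases at 583 CPM, and the part of depth in this value was not tested.

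**Figure D2:**
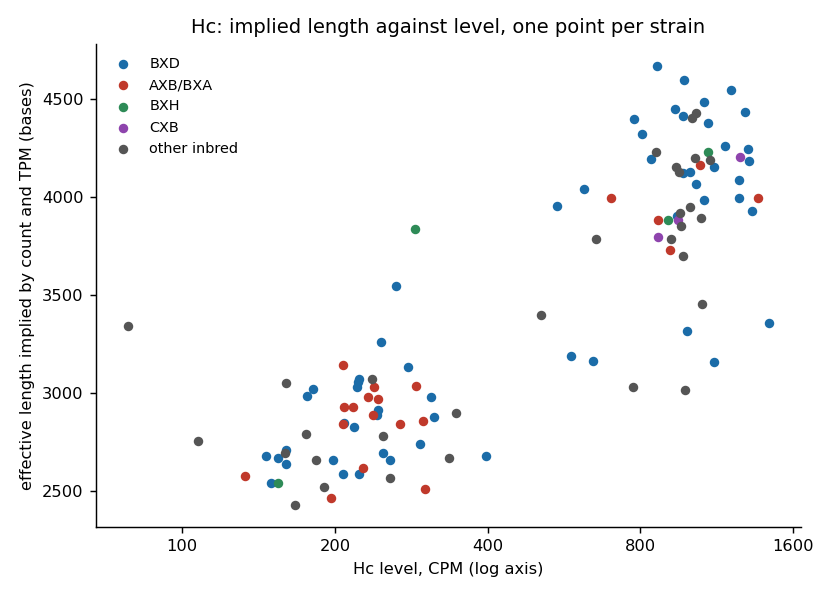
Effective length of Hc implied by its count and TPM (bases) against its level (CPM, log axis), 1 point per strain and colored by family. The 7 deficient strains lie at 2522 to 3343 bases and the 6 sufficient strains at 3455 to 4427 bases, and BXH2/TyJ stands apart at 288 CPM and 3835 bases.

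The diet study asked how iron moves liver transcripts in C57BL/6J mice, while Hc was chosen for its pattern across strains. Earlier results of these data were known at that choice. Hc was highest on chow, at 1217, 1029 and 965 CPM (1071 ± 131, SD, n = 3). Mice on 50 ppm had 1150, 915 and 917 CPM (994 ± 135, n = 3), and mice on 500 ppm had 930, 571 and 876 CPM (792 ± 194, n = 3). On 2% iron the values were 847, 857 and 846 CPM (850 ± 5.96, n = 3), and with cellulose 692, 690 and 853 CPM (745 ± 93.4, n = 3). The 2% iron mice were below every chow mouse and every 50 ppm mouse, though Hc did not pass the test in either comparison. How many of all genes separate in this way was not counted. The 500 ppm mice overlapped both neighbours on the iron scale, and 500 ppm replicate 2, the deepest library of the diet study with 20.4 M counts, was the lowest of the 15 mice.

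No comparison of diets passed the test for Hc, with edgeR's quasi-likelihood test over all genes and Benjamini-Hochberg adjustment. From 50 ppm to 2% iron Hc differed by -0.23 on the log2 scale (SE 0.17, adjusted p = 0.392), where 15.7% of all 13560 genes tested were called at an adjusted p under 0.05. Against chow the difference of 2% iron was -0.33 (SE 0.17, adjusted p = 0.175), with 22.8% of genes called. From 50 to 500 ppm it was -0.33 (SE 0.17, adjusted p = 1), where 0.00% of genes were called. In that comparison 428 genes had an unadjusted p under 0.05 and DESeq2 called 2. The change from 500 ppm to 2% iron was 0.10 (SE 0.17, adjusted p = 0.762), with 11.3% of genes called (6.59% higher), and without 500 ppm replicate 2 it turned to -0.09 (adjusted p = 0.720). Chow against 50 ppm gave 0.11 (SE 0.17, adjusted p = 0.892, 0.391% of genes called), and cellulose with 2% iron against 2% iron gave -0.19 (SE 0.17, adjusted p = 0.672, 0.0811% called, 0.00737% higher and 0.0737% lower). On TPM, Hc was 260 ± 30.5 on chow, 233 ± 14.2 on 50 ppm, 200.1 ± 30.98 on 500 ppm, 219 ± 32.96 on 2% iron and 190 ± 25.8 with cellulose (SD, n = 3 each). All 6 differences were between -0.33 and 0.11 on the log2 scale.

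Of the 6 genes tested whose products join C5b in the membrane attack complex, 5 were lower on 2% iron than on 50 ppm: C6, C8a, C8b, C8g and C9, where 7.17% of all genes were called lower. The sixth, C7, had a log2 difference of 1.53 and did not pass (adjusted p = 0.156). The median log2 difference of the 6 was -0.83, against 0.01 over all genes. In bulk liver, fewer cells of a type and less RNA per cell cannot be told apart.

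C6, which binds C5b first, was at 72.4, 78.0 and 59.5 CPM on 2% iron and at 385, 157 and 149 CPM on 50 ppm. Its log2 difference was -1.72 (SE 0.33, adjusted p = 0.00428), and -1.13 (adjusted p = 0.0135) without 50 ppm replicate 1, the mouse at 385 CPM. C8a, the alpha chain of C8, was at 240, 335 and 238 CPM on 2% iron and at 836, 465 and 581 CPM on 50 ppm, a log2 difference of -1.21 (SE 0.19, adjusted p = 0.00159). C9, which polymerizes into the pore, was at 119, 174 and 161 CPM on 2% iron and at 455, 250 and 220 CPM on 50 ppm, a difference of -1.03 (SE 0.26, adjusted p = 0.0169). In each of these genes no 2% iron mouse reached any 50 ppm mouse, and 50 ppm replicate 1 was the highest of its group. How many of all genes separate in this way was not counted.

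C8b and C8g, the other chains of C8, changed less, by -0.64 (SE 0.19, adjusted p = 0.0401) and -0.52 (SE 0.14, adjusted p = 0.0247). C7 was near the limit of detection, at most 1.82 CPM in any diet mouse. C6 and C8a were called in all 13 alternative fits of this comparison, C9 in 11, C8g in 8 and C8b in 7. C9 lost its call without 50 ppm replicate 1 (-0.64, adjusted p = 0.0963) and without 2% iron replicate 1 (adjusted p = 0.0680). C8b and C8g lost theirs without 2% iron replicate 1, without 2% iron replicate 3 and without 50 ppm replicate 1, with adjusted p of 0.0650 to 0.215.

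Against chow the same 5 genes were lower on 2% iron, where 10.9% of all genes were called lower. C6 fell from 300.2 ± 21.2 to 70.0 ± 9.48 CPM (SD, n = 3 each), a log2 difference of -2.10 (adjusted p = 0.000696). C9 fell from 489.1 ± 57.2 to 151 ± 28.9 CPM, a difference of -1.69 (adjusted p = 0.000638). C6, C8a, C8g and C9 were called in all 13 alternative fits of this comparison, and C8b in 11, losing its call without 2% iron replicate 3 or chow replicate 1. Against 500 ppm, C6 (-1.51), C8a (-0.74) and C8g (-0.51) were lower, where 4.75% of genes were called lower. C8a and C8g each lost that call without 2% iron replicate 1, 2% iron replicate 3, 500 ppm replicate 1 or 500 ppm replicate 3, with adjusted p of 0.0704 to 0.142. C9 had a difference of -0.75 there (adjusted p = 0.0761) and was called without 500 ppm replicate 2 (adjusted p = 0.0483). These comparisons share the 2% iron mice.

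The mice on 2% iron with cellulose had the lowest levels of C6 (36.2, 29.7 and 36.8 CPM), C8a (167, 148 and 172 CPM), C8b (103.9, 76.6 and 93.9 CPM), C8g (87.2, 88.6 and 92.9 CPM) and C9 (63.7, 65.2 and 101 CPM). None of them passed the test against 2% iron without cellulose (adjusted p 0.123 to 0.212). DESeq2 called C8a, C8b, C8g and C9 there, C9 was also called without cellulose replicate 3 (adjusted p = 0.0481), and C6 was called when these 2 groups were fitted alone (adjusted p = 0.0363). Hc did not pass in any of these comparisons, and whether its change differed from that of C6 or C9 was not tested.

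**Figure D3:**
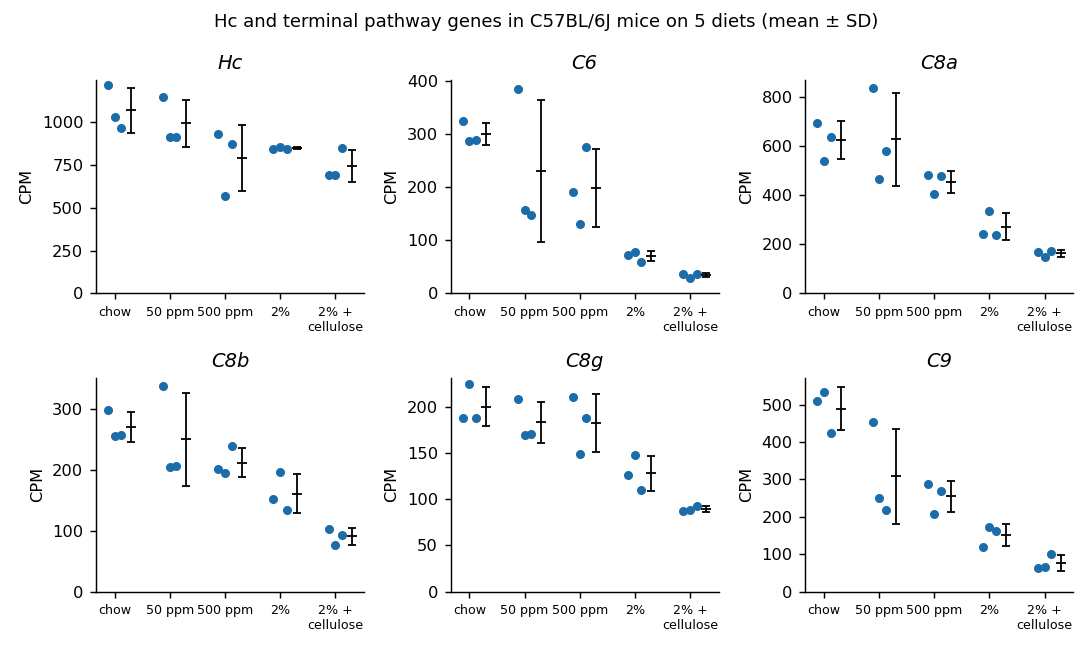
Levels (CPM) of Hc, C6, C8a, C8b, C8g and C9 in 15 C57BL/6J mice on 5 diets, 1 point per mouse with the mean and SD of 3 mice beside them. C6 is at 59.5 to 78.0 CPM on 2% iron against 149 to 385 CPM on 50 ppm, while Hc is at 846 to 857 CPM against 915 to 1150 CPM.

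The rest of the complement system was read from a list of 47 genes, of which 46 passed the filter on low counts. The list was written with earlier results of these data known. From 50 ppm to 2% iron, 14 were higher and 9 lower, and 23 did not pass, against 8.52% of all genes higher and 7.17% lower. Their median log2 difference was 0.15, against 0.01 over all genes. The count of 23 fell to 13 without 2% iron replicate 1, to 15 without 2% iron replicate 3 and to 11 without 50 ppm replicate 1. Over all genes the count of 2127 fell to 1370, 1267 and 1003 without the same mice.

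Upstream of C5, the components of the C3 and C5 convertases mostly did not pass. C3, the central component, had a log2 difference of -0.10 (adjusted p = 0.669), C4b 0.28 (adjusted p = 0.122), C2 -0.17 (adjusted p = 0.476) and Cfb -0.05 (adjusted p = 0.708). Cfp, the convertase stabilizer properdin, rose from 11.4 ± 2.46 to 32.8 ± 4.06 CPM (SD, n = 3 each), a log2 difference of 1.52 (adjusted p = 0.000866). The C1q chains, which start the classical pathway, rose together: C1qa by 1.40, C1qb by 1.64 and C1qc by 1.40, each with an adjusted p of at most 0.000646. C1ra and C1s1, the proteases of C1, did not pass.

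In the lectin pathway 4 of 7 genes were higher and 2 lower. Fcna, a ficolin of macrophages, rose by 1.33 (adjusted p = 0.000489), Colec10 by 0.68, Colec11 by 0.43 and Masp1, a protease, by 0.32. Mbl1, a mannose-binding lectin, fell from 136 ± 11.9 to 80.5 ± 9.75 CPM (SD, n = 3 each), and Masp2, the main protease of the pathway, from 214 ± 9.45 to 174 ± 6.18 CPM. Among 15 regulators, Cfi rose by 0.44, while Cd59a, which blocks the membrane attack complex, fell by 0.56 and Clu, which binds it in plasma, fell by 0.34. The calls of Colec10, Colec11, Masp1 and Clu were each lost in 7 or 8 of 13 alternative fits, those without 2% iron replicate 1 and without 50 ppm replicate 1 among them. Cfi lost its call without 2% iron replicate 1 or 50 ppm replicate 1 or 3, and Masp2 without 2% iron replicate 3 or 50 ppm replicate 1 or 2.

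The receptors of the C5a and C3a peptides were scarce in liver. C5ar1, the C5a receptor of phagocytes, rose from 0.608 ± 0.0474 to 1.73 ± 0.370 CPM (SD, n = 3 each), a log2 difference of 1.49 (adjusted p = 0.0109). Its call was lost without 2% iron replicate 1 (adjusted p = 0.0524) and without 50 ppm replicate 1 (adjusted p = 0.0522). C3ar1, the C3a receptor, rose from 2.76 ± 0.902 to 7.05 ± 0.803 CPM, a log2 difference of 1.34 (adjusted p = 0.0145), and lost its call without 50 ppm replicate 1 (adjusted p = 0.0735). C5ar2, the second C5a receptor, had a log2 difference of 0.45 (adjusted p = 0.353). Of 4 phagocyte receptors of C3 fragments, 3 rose, Vsig4 by 1.73, Itgb2 by 1.61 and Itgam by 1.52. The other, Itgax, had a log2 difference of 1.02 and did not pass (adjusted p = 0.0517). Itgam lost its call when any mouse of either group was left out, with adjusted p of 0.0528 to 0.128.

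Markers of Kupffer cells moved with these receptor, C1q and Fcna levels. The summed level of Clec4f, Adgre1, Cd5l, Timd4 and Marco was 355 to 374 CPM in the 2% iron mice, 80.5 to 137 CPM on 50 ppm, 73.0 to 169 CPM on 500 ppm, 88.6 to 119 CPM on chow and 342 to 526.2 CPM with cellulose. The summed level of 5 neutrophil markers was 3.02 to 10.4 CPM on 2% iron and 0.387 to 0.828 CPM on 50 ppm. The part of these cells in the complement results was not tested. Beside the fall of the 5 terminal genes called, the summed level of 5 hepatocyte markers was 82249 to 87300 CPM on 2% iron and 66135 to 75924 CPM on 50 ppm. The part of hepatocytes in that fall was not tested.

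**Figure D4:**
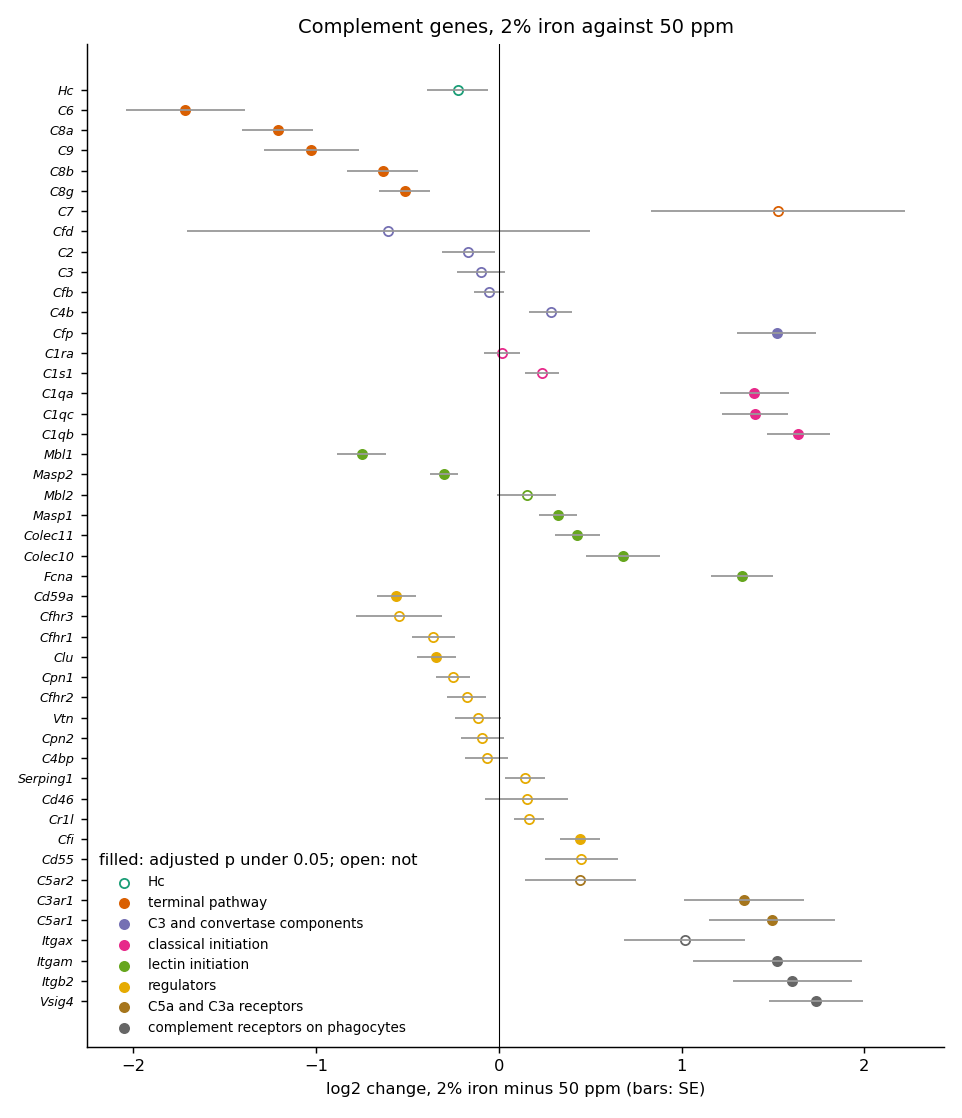
Log2 difference of 2% iron from 50 ppm (points, with the SE as bars) for Hc and complement genes grouped by role, filled where the adjusted p was under 0.05. The 5 terminal pathway genes called lie to the left, from -1.72 (C6) to -0.52 (C8g), and C7 to the right with an open point, the C1q chains and phagocyte receptors to the right at 1.40 or more among those called, and Hc lies at -0.23 with an open point.

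BXD and AXB/BXA strains were compared as families because both combine C57BL/6J with a C5-deficient parent. Hc itself was left without a test. Of 45 complement genes tested, 3 were higher in BXD and none lower, where 6.62% of all 13794 genes were called higher and 5.02% lower. The count of 3 is near the share over all genes and is not read as a result about complement. The genes were Itgam (log2 difference 0.74, adjusted p = 0.0189), Colec11 (0.34, adjusted p = 0.0120) and Cfhr3 (0.45, adjusted p = 0.0239). Cfhr3 is annotated as an unprocessed pseudogene and averaged 4.37 CPM over the panel. Itgam, a gene of myeloid cells, was not called by limma on log2(TPM + 1) (adjusted p = 0.125). The summed neutrophil markers had a median of 5.36 CPM in BXD (0.348 to 116) and 2.57 CPM in AXB/BXA strains (0.429 to 45.1), and the summed Kupffer cell markers 341 CPM (168 to 605) and 295 CPM (166 to 535.99). Their part in the Itgam difference was not tested. At an unadjusted p under 0.05, 3472 of all genes passed, and 1606 were called after adjustment. DESeq2 also called C3ar1 (adjusted p = 0.0494) and Vsig4 (adjusted p = 0.0458) higher in BXD. Leaving out the library labelled AXB10/PgnJ added C6 (1.10, adjusted p = 0.000865), C8b (0.43, adjusted p = 0.0398) and Clu (0.17, adjusted p = 0.0459), all higher in BXD. C6 was at 221 CPM in that library, and the next highest AXB/BXA strain, AXB12/PgnJ, had 37.2 CPM. It also had the highest C8a (916 CPM), C8b (345.4 CPM) and C9 (325.8 CPM) of the family. With that library the log2 difference of C6 was 0.57 (adjusted p = 0.167).

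Per transcript length, Hc had a median of 153 TPM over the 114 strains, at the lower edge of its high range, with medians of 76.6 TPM below the step and 249 TPM above it. The medians over the same strains were 175 TPM for C8g, 102 for C8a, 71.6 for C8b, 65.8 for C9 and 12.6 for C6, and 2281 TPM for C3. The Hc median of the low strains is below that of C8a and the Hc median of the high strains above that of C8g. The terminal genes varied among strains as well: the SD of log2 CPM was 1.15 for Hc, 1.30 for C9, 1.12 for C6, 1.02 for C8a, 0.70 for C8g and 0.63 for C8b.

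Which genes followed Hc across strains was read from Spearman's rho with its log2 CPM over the 56 BXD strains, for 12912 genes that averaged 1 CPM or more. Each point is 1 library, genes of a library share its total and scaling factor, and no p is given. The genes most like Hc were Slc39a1 (0.57), a zinc transporter, Il34 (-0.57), a cytokine of macrophages, Lhx2 (-0.55), C2 (0.54), Bmp5 (-0.53), Dnlz (0.53), Eps8 (-0.52), Ntmt1 (-0.50), Nhp2 (-0.50) and Bag2 (-0.50). The median absolute rho over all genes was 0.12, and these 10 genes were all that reached 0.5. Over the AXB/BXA strains their rho ran from -0.49 (Ntmt1) to 0.38 (Slc39a1). The list depends on the scale, as only 3 of the 10 were among the first 10 with log2(TPM + 1). With Pearson's r 6 were shared, and without BXD65/RwwJ 9.

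Since Hc falls into a low and a high range, rho was also taken within each, as a description. The split uses the level of Hc itself, at the step chosen after the values were seen. Slc39a1 had 0.57 over the 26 low BXD strains and 0.50 over the 30 high ones, and C2, which forms convertases with C4b, had 0.60 and 0.68. Dnlz had 0.17 and 0.40, and Ntmt1 had -0.31 and -0.20. Since rho over fewer strains scatters more widely, the complement genes are given beside all genes. Of 44 complement genes, 1 reached an absolute rho of 0.5 over the 56 strains, 15 over the 26 low strains and 13 over the 30 high strains. Over the low strains 12 of the 15 were positive and 3 negative: Vsig4 (-0.58), C3ar1 (-0.57) and Cfp (-0.51). All 13 over the high strains were positive, and the same 3 genes had -0.25, -0.40 and -0.36 there. Over all 12912 genes the shares at 0.5 or more were 0.0774%, 7.65% and 3.72%, against 2.27%, 34.1% and 29.5% of complement genes. Over the 30 high strains Vtn (vitronectin, a plasma inhibitor of the membrane attack complex) had 0.92, C3 0.87, Cfi 0.84, Cfb 0.84 and Serping1, the C1 inhibitor, 0.80. Over the 26 low strains Vtn had 0.78, Serping1 0.71, C3 0.35, Cfi 0.31 and Cfb 0.26, and Cpn2 had 0.76 over the low and 0.72 over the high strains. These were picked after their values were seen.

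Of the terminal genes, C9 had a rho with Hc of 0.41 over all BXD strains, C8g 0.39, C8a 0.38, C8b 0.33 and C6 0.18. C5ar1 had -0.02. Hamp, the hepcidin gene that governs iron uptake, had -0.20 over the BXD, 0.35 over the AXB/BXA and 0.26 over the other inbred strains.

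Over the 20 AXB/BXA strains the genes most like Hc were Slc46a1 (0.89), a transporter of folate and heme, Jtb (0.86), Mtfp1 (0.75), Rilpl1 (-0.75) and Ndufa3 (0.74). Over the BXD strains the same genes had 0.27, 0.24, 0.09, -0.13 and 0.05. Without the library labelled AXB10/PgnJ, Slc46a1 had 0.87 and Jtb 0.85.

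Of 18 genes within 1 Mb of Hc that passed the same minimum, none reached an absolute rho of 0.5 over all 56 BXD strains, and their median absolute rho was 0.09 against 0.12 over all genes. Within the low range 2 of the 18 (11.1%, against 7.65% of all genes) did, AI182371 (0.73) and Cntrl (-0.51). Within the high range 1 did (5.56%, against 3.72%), Mapkap1 (0.52). AI182371, the nearest at 0.0204 Mb, had 0.35 over all BXD, 0.50 over the AXB/BXA and 0.39 over the other inbred strains, and 0.37 over the high BXD strains. Cntrl, 0.0481 Mb away, had -0.27 and -0.47 over the BXD and AXB/BXA strains, and Psmd5, 0.108 Mb away, had 0.22 and 0.31. Over the AXB/BXA strains 2 of the 18 reached 0.5 in size, Fbxw2 (-0.62) and Mapkap1 (0.51), which is 11.1% against 4.78% of all genes. Without the library labelled AXB10/PgnJ, Cntrl (-0.56) reached it and Mapkap1 (0.48) did not. Of the 10 genes most like Hc over the BXD strains, 3 lie on chromosome 2, where 7.92% of all ranked genes lie: Lhx2, 3.28 Mb from Hc, Ntmt1, 4.16 Mb away, and Dnlz, 8.63 Mb away.

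**Figure D5:**
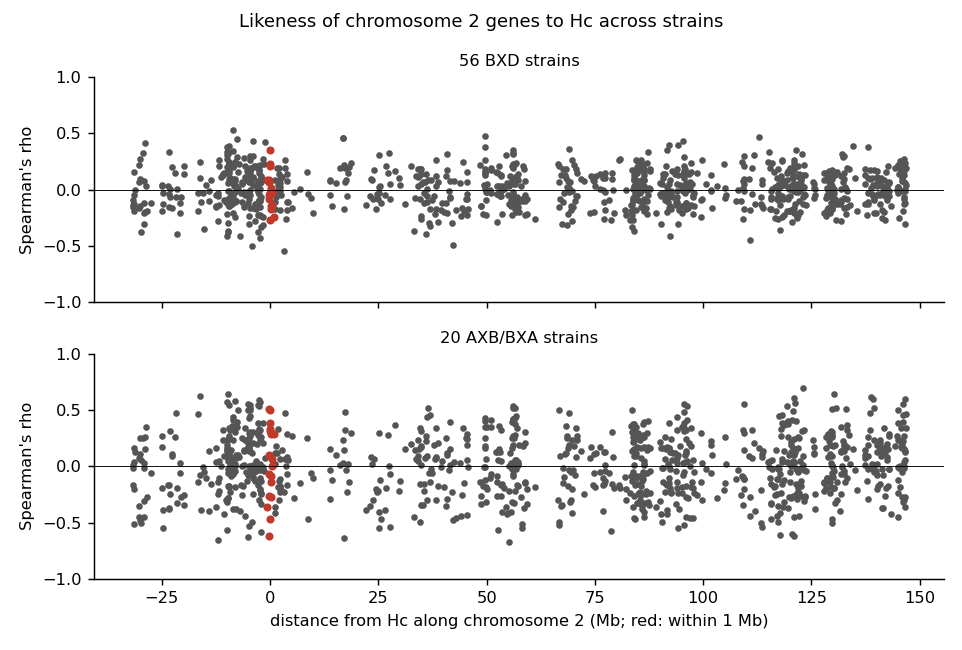
Spearman's rho with Hc of each chromosome 2 gene against its distance from Hc (Mb), over 56 BXD strains (top) and 20 AXB/BXA strains (bottom), with red points for the 18 genes within 1 Mb. In the BXD strains the red points stay between -0.27 and 0.35, and in the AXB/BXA strains between -0.62 and 0.51.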

How the data were processed

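Liver RNA was sequenced with a stranded mRNA library kit, per the labels, and quantified with kallisto 0.46 on mm10, per the submitters' processing notes. The authors deposited expected counts per gene (27.4% of panel and 26.5% of diet values were not whole) and TPM. The design assumed counts, so the expected counts were rounded. Ensembl 97 is named by the panel tables, and GENCODE M21 matched 35612 of 35711 panel and 34845 of 35274 diet identifiers. The deposited TPM columns sum to 994114 to 997301 in the panel and to 1000000 in the diet study.

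Tests used edgeR 4.0.16 in R 4.3.3 (glmQLFit, glmQLFTest, TMM, filterByExpr, Benjamini-Hochberg over all genes, two-sided, called at 0.05), with the 15 diet mice fitted together and the 76 BXD and AXB/BXA strains fitted alone. DESeq2 1.42.0 and limma 3.58.1 on log2(TPM + 1) or log2(TPM + 0.1) were alternatives. Log2 CPM used a prior count of 2. Same-group diet libraries differed by more than counting noise (mean chi-square per gene 15.5 to 69.3), so none was a duplicate. Nothing says how litters were assigned. The p-values set a group difference against the spread between the mice fitted. In the family comparison these are of different strains, with 1 mouse each.

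Named genes were Hc, the complement list, genes within 1 Mb, and the 10 and 5 genes most like Hc over BXD and AXB/BXA strains. Members and lists were chosen with earlier results of these data known. Scripts were tested on simulated data. A single gene of the complement list is counted but not reported here by name or value.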

Additional observations from a re-analysis of the deposited data

How the results depend on the processing

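Hc was not called in any diet comparison under 12 or 13 alternatives each, and its smallest adjusted p was 0.0670, for 2% iron against chow without 500 ppm replicate 2. Leaving out single mice moved 2% iron against 500 ppm between -0.0905 and 0.230. Counts called from 50 ppm to 2% iron ranged from 11 to 24 of the complement genes (23 with all mice) and from 1003 to 2333 of all genes (2127) when a mouse was left out. Limma on log2(TPM + 1) called 1208 of all genes there and on log2(TPM + 0.1) 1161, and 906 instead of 1606 between BXD and AXB/BXA. Complement calls between families were 3, 5 with DESeq2 and 6 without the library labelled AXB10/PgnJ. Small differences that did not pass turned sign: leaving out mice moved C1ra between -0.0541 and 0.142 and C7 against 500 ppm between -0.109 and 0.939, and limma gave Cfb 0.0204 on either scale. The cause of these shifts was not tested. Likeness to Hc weakened on log2(TPM + 1) for Il34 (-0.39), Lhx2 (-0.44), Bmp5 (-0.41), Eps8 (-0.35) and Bag2 (-0.35). Counts of BXD strains under the dividing level were 26 to 30, of AXB/BXA strains 15 and of other inbred strains 13 to 15. No paired analysis was possible because the labels give no replicate numbers, and those used here follow accession order. With 1 mouse per strain, neighbouring strain levels cannot be ordered. Hc had at least 963 counts in each library, and the part of depth in its levels was not tested.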
